A study of Mus musculus with 17 samples.

Results

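Unirradiated mouse skin 3 days after injury was compared with unirradiated skin labelled day 0, in bulk RNA-seq libraries prepared with Smart-Seq2, a method that copies and amplifies full-length cDNA. The comparison used 4 of the 17 libraries of the series: control day 0, replicates 1 and 2, and control day 3, replicates 1 and 3. Genes were kept where FPKM (fragments scaled by gene length and library depth) was at least 1 in at least 2 of these 4 libraries, which left 13876 of the 34140 genes listed. All mice were of the strain labelled C57/BL6j with no genetic change named, the tissue was labelled skin, and the treatment of these 4 libraries was labelled Control. The series asks how ionising radiation alters wound healing, and its other libraries are control skin of days 6 and 9 and irradiated skin of days 3, 6 and 9. The labels used here give no age, sex or wound size. They do not say whether the day 0 skin was taken before or at the time of injury, nor whether the libraries came from separate animals. The p-values therefore measure the spread within the 7 groups of all 17 libraries, which may be technical.

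When skin is cut, keratinocytes at the margin switch from the keratins of resting epidermis to the wound keratins K6, K16 and K17, loosen from the basement membrane, and crawl over a provisional matrix while cells behind them divide. Neutrophils and then monocytes enter the tissue, and fibroblasts and new vessels fill the bed later and lay down collagen. Mouse skin also lies on a thin sheet of skeletal muscle, the panniculus carnosus, which a full-thickness wound cuts through and a full-thickness sample includes. All 10 defining markers of skin passed the filter. Keratin 14 stood at 1099 and 600.5 FPKM at day 0 and 10734 and 10611 FPKM at day 3, keratin 10 at 973 and 501 FPKM at day 0 and 432 and 544 FPKM at day 3, and the collagen gene Col1a1 at 253 and 973 FPKM at day 0 and 669 and 316 FPKM at day 3. Here and throughout, day 0 values are in the order replicate 1, replicate 2, and day 3 values in the order replicate 1, replicate 3.

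The table corresponded to 25440773 and 29835196 assigned fragments at day 0 and 29379605 and 29650137 at day 3. The mitochondrial genome's share of summed FPKM was 31.8% and 21.7% at day 0, 9.99% and 12.6% at day 3, and 8.33 to 11.7% in the 13 other libraries. The 2 day 0 libraries stood further apart (Pearson r across genes 0.956, with 881 genes, 6.35%, differing by over 1 on the log2 scale) than the 2 day 3 libraries (r 0.986, 133 genes, 0.958%). Pairs across the days had r of 0.864 to 0.900, where the genes are not independent replicates. Differences are log2 fold changes of FPKM + 1, which understate the change of weakly expressed genes, from limma fitted to all 17 libraries. A gene is said to rise or fall where the adjusted p was under 0.05 (Benjamini-Hochberg over 13876 genes). By that rule 5891 genes (42.5%) changed, 3962 (28.6%) upward and 1929 (13.9%) downward. The median change of all genes was 0.17. Scaling by median-of-ratios or quantiles moved it to -0.01 and 0.01 and turned the split to 2420 up and 3073 down and to 2654 up and 2990 down, and scaling to the nuclear-encoded total gave 0.04 with 2575 up and 2342 down. A change of at least 1 was found for 1011 risen and 619 fallen genes, and of at least 3 for 70 and 14. With 2 libraries against 2, an exact permutation test of a single gene cannot go under p = 0.333, and the filter kept 471 genes through the day 3 libraries alone and 314 through the day 0 libraries alone.

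Keratins of the wound margin were among the largest rises, and Krt6b had the largest of any gene tested. Krt6b, 1 of the 2 mouse keratin 6 genes, stood at 36.4 and 13.6 FPKM at day 0 and 3629.7 and 3015 FPKM at day 3. Both day 3 libraries were far above both day 0 libraries, and mean FPKM differed 133-fold. The log2 change was 7.15 (SE 0.59, adjusted p = 2.4e-05). Krt6a, its near copy on the same chromosome, went from 112 and 56.4 to 2826 and 2686 FPKM, a change of 5.098 (SE 0.55, adjusted p = 4.99e-05). Krt16, the type I partner of keratin 6, went from 94.4 and 24.6 to 3485 and 2969 FPKM, and its change was 6.02 (SE 0.68, adjusted p = 6.56e-05). The groups did not overlap for any of the 3, as for 70.5% of all genes tested, and replicate 1 was the higher library of each day. Krt17 rose less, from 371 and 139.5 to 1286 and 1053 FPKM, by 2.35 (SE 0.63, adjusted p = 0.0102), and its adjusted p was 0.0851 without day 0 replicate 2 and 0.0633 without day 3 replicate 1. Reads of Krt6a and Krt6b may be split between the copies in a way that the counting used here does not show. In bulk tissue, fewer cells of a type and less RNA per cell cannot be told apart.

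Of the 21 listed wound keratins and wound-edge genes, 21 were tested, 15 rose (71.4% against the 28.6% of all genes that rose) and none fell, with a median change of 3.57 beside 0.17 for all genes. Of the 21, 6 passed the filter through the day 3 libraries alone, being under 1 FPKM in both day 0 libraries, so that they could be tested only as higher at day 3. Of the 15 others 11 rose. The 6 that did not pass were all higher at day 3 on average: Ivl (involucrin, 0.57), Plau (urokinase, 0.80), its receptor Plaur (0.89), the AP-1 subunit gene Fosl1 (0.88), Sprr2b (1.85) and Sprr2f (3.54). Tgm1, the transglutaminase that cross-links the cornified envelope, went from 11.2 and 4.76 to 41.05 and 31.9 FPKM, a change of 2.15 (SE 0.51, adjusted p = 0.005199). Il1f9, which encodes the keratinocyte cytokine IL-36 gamma, went from 18.1 and 9.27 to 91.00 and 61.2 FPKM, a change of 2.43 (SE 0.39, adjusted p = 0.000494). Neither gene lost its call under any alternative setting run.

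**Figure D1:**
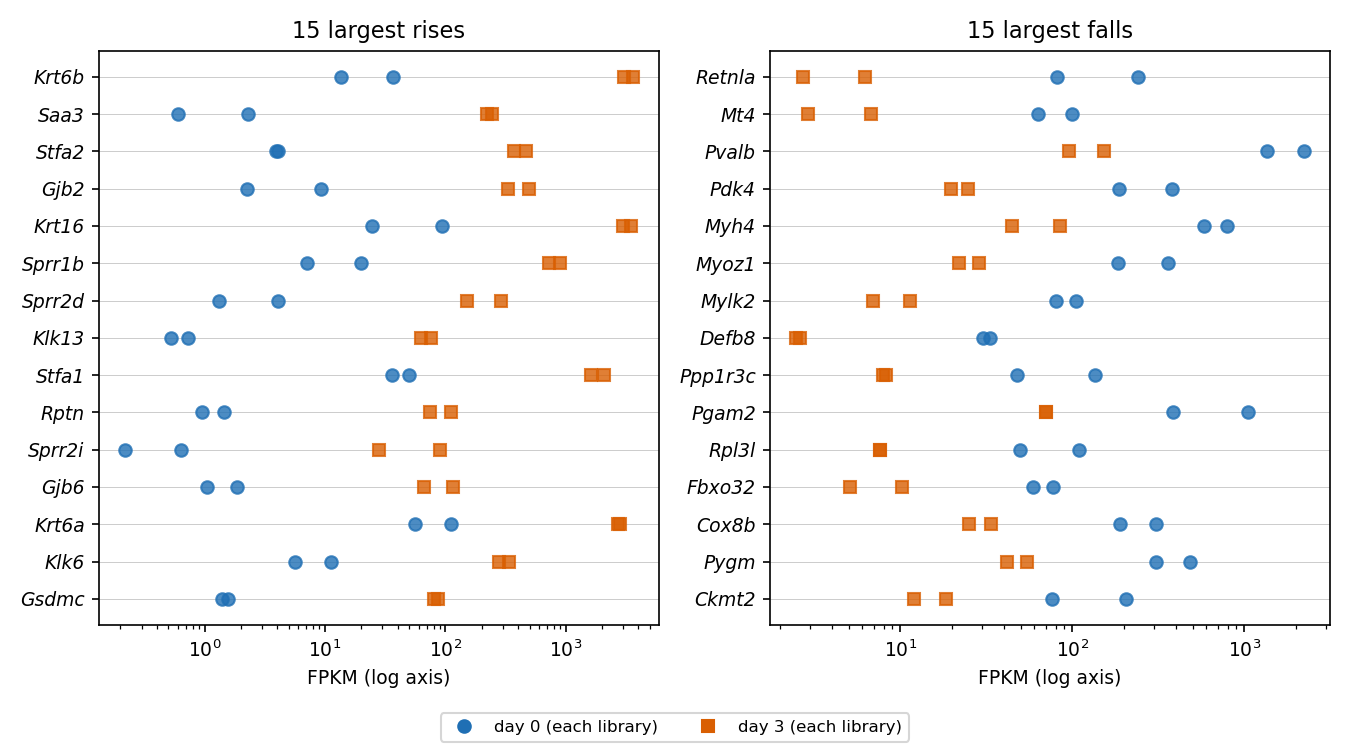
FPKM on a log axis of the 15 protein-coding genes with the largest rises (left) and falls (right) from day 0 (blue circles) to day 3 (orange squares), each point a library. The genes were selected for groups that do not overlap, and Krt6b, Krt16, Krt6a and Stfa1 stand at 1616 FPKM or more in both day 3 libraries.

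Several small proline-rich (Sprr) genes of the same list have AP-1 letters in their promoters, and 4 that rose are shown because they include the 2 Sprr genes with the largest rises. The windows are from RefSeq (GRCm38.p6), 5' to 3' on the gene's strand and upstream of the start, with each match to TGANTCA, the core of an AP-1 site, in capitals.
Sprr1a (chr3:92485961-92486057, - strand): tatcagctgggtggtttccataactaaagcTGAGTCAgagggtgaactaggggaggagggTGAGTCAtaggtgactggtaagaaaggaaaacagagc
Sprr1b (chr3:92438854-92438920, - strand): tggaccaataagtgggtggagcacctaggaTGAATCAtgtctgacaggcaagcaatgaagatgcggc
Sprr2d (chr3:92338917-92338983, + strand): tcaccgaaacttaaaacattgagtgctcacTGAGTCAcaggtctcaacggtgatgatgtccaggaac
Sprr2h (chr3:92385457-92385523, + strand): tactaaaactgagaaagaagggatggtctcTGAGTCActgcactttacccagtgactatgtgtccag
TGANTCA, which reads the same on both strands and can share letters with the CHR element named later, was present within 250 bases upstream of 9 of the 14 wound-edge genes with a promoter entry (64.3%) and of 457 of 9468 tested genes with one (4.83%). Of those 9, 7 are Sprr genes, several of them near copies of each other, and the other two are Ivl and Plaur. Of the 9 genes, Ivl, Plaur, Sprr2b and Sprr2f did not pass. A match is a description of the letters and not evidence of binding. Sprr1b, a cross-linked precursor of the cornified envelope, stood at 19.9 and 7.03 FPKM at day 0 and 899 and 725 FPKM at day 3, a change of 5.96 (SE 0.65, adjusted p = 5.66e-05). Sprr1a went from 105 and 31.6 to 1026 and 718 FPKM, a change of 3.87 (SE 0.70, adjusted p = 0.00102). Sprr2d went from 4.098 and 1.33 to 288 and 151 FPKM, a change of 5.93 (SE 1.12, adjusted p = 0.00134). Sprr2h went from 3.29 and 1.96 to 95.7 and 65.1 FPKM, a change of 4.49 (SE 0.79, adjusted p = 0.0008897). All 4 genes were higher in both day 3 libraries than in either day 0 library, and in all 4 the replicate 1 library was the higher of its day.

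These genes lie in the epidermal differentiation complex, a dense cluster of cornified envelope and S100 genes on mouse chromosome 3 (mm10, 90511034 to 93564643, taken here from S100a1 to S100a10). Of its 99 genes 67 were tested, 28 rose and 6 fell, beside 28.6% and 13.9% of all genes. The filter kept 14 of the 67 through the day 3 libraries alone, and 11 of the 28 rises were among them. Of the 53 others 17 rose. The summed FPKM of the 17 Sprr genes, tested or not, went from 166 and 73.7 to 2701 and 1916. Of the 15 Sprr genes tested 9 passed the filter through day 3 alone, 7 of them rising, and of the 6 others 4 rose. The summed FPKM of the 6 Lce3 genes went from 9.83 and 8.84 to 293 and 186, with changes between 3.45 and 4.49 that each passed. Of these, Lce3a, Lce3b, Lce3e and Lce3f were under 1 FPKM in both day 0 libraries and entered the test through day 3 alone. LCE3 proteins belong to the repair form of the cornified envelope, whereas LCE1 proteins belong to that of resting epidermis. Only Lce1g rose among the 14 Lce1 genes, and the Lce1 sum was 2523 and 1190 at day 0 and 1326 and 1259 at day 3, so that both day 3 libraries lay between the day 0 libraries. Within the Lce3 group, Lce3e went from 0.648 and 0.773 to 46.5 and 30.1 FPKM, a change of 4.49 (SE 0.50, adjusted p = 6.47e-05), and the calls of Lce3a and Lce3b were lost when recovered fragments were tested with limma-voom (adjusted p = 0.0803 and 0.104).

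Rptn, which encodes repetin, a fused-type S100 protein of the envelope, went from 0.958 and 1.44 to 111 and 74.2 FPKM, a change of 5.39 (SE 0.51, adjusted p = 3.16e-05), and was the only gene outside the Sprr family among the complex's 5 largest rises. Its neighbours of the same protein type, chosen after their values were seen, did not pass: Flg2 (filaggrin 2) stood at 79.7 and 32.1 FPKM at day 0 and 15.3 and 16.4 FPKM at day 3 (adjusted p = 0.0955) and Flg at 5.36 and 5.74 FPKM at day 0 and 15.3 and 13.3 FPKM at day 3 (adjusted p = 0.171). Lor, encoding loricrin, the bulk protein of the mature envelope, likewise chosen afterwards, stood at 1099 and 478 FPKM at day 0 and 332 and 315 FPKM at day 3, a difference of -1.16 (adjusted p = 0.146) that did not pass. Day 0 replicate 1 held the highest value of Lor and Flg2, and day 0 replicate 2 was also above both day 3 libraries for each. The antimicrobial calcium-binding genes S100a8 and S100a9, also chosen afterwards, were at 99.2 and 136 FPKM at day 0 and 701 and 441 FPKM at day 3 and at 398 and 217 FPKM at day 0 and 2252 and 1226 FPKM at day 3, without passing (adjusted p = 0.168 and 0.125). The peptidoglycan-binding gene Pglyrp3, chosen in the same way, rose from 2.17 and 0.817 to 22.3 and 17.9 FPKM, by 3.13 (adjusted p = 4.33e-05).

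**Figure D2:**
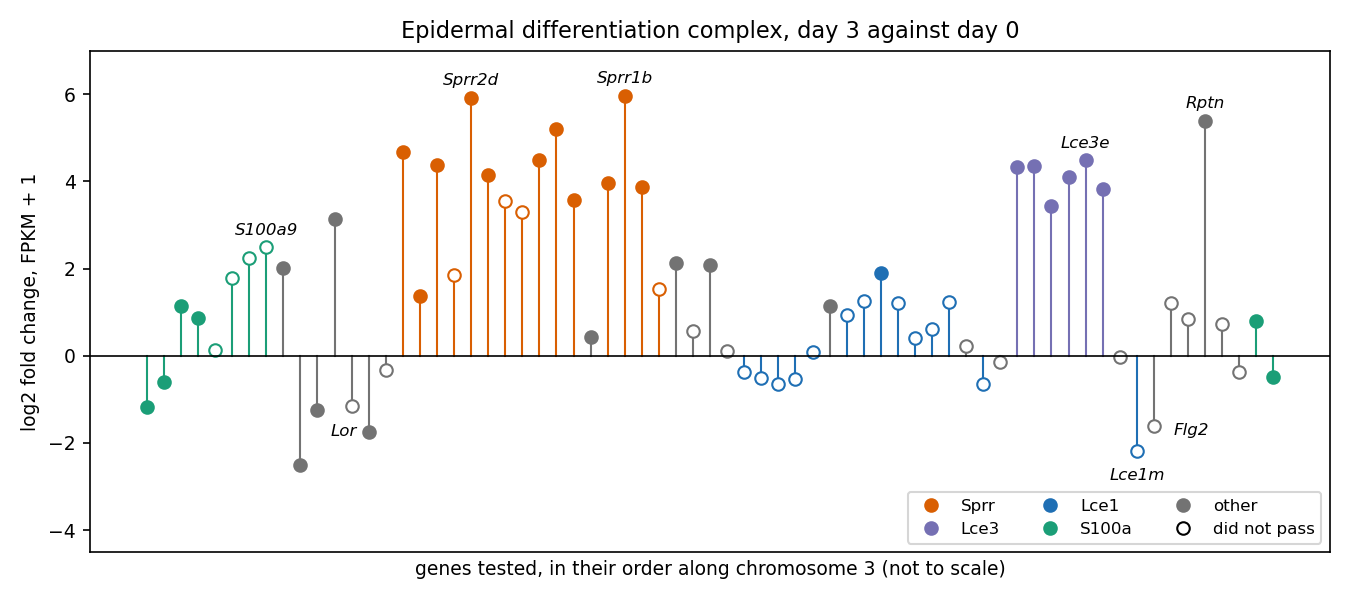
Log2 fold change of FPKM + 1, day 3 against day 0, of the 67 tested genes of the epidermal differentiation complex in their order along chromosome 3. Filled points had an adjusted p under 0.05. The Sprr block and the 6 Lce3 genes stand above 3 for most members, and most Lce1 genes scatter around 0.

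Over all 36 tested suprabasal and cornified envelope genes, 13 rose and 1 fell, with a median of 0.79. Among all genes 28.6% rose and 13.9% fell. Of the 13, 4 had passed the filter through day 3 alone. The number that rose was 8 without day 0 replicate 2, 8 without day 3 replicate 1 and 8 without day 3 replicate 3. Krt1 and Krt10, the paired keratins of the layers above the base, differed in the outcome of their tests. Krt1 stood at 295 and 215 FPKM at day 0 and 790.2 and 949 FPKM at day 3 (change 1.78, adjusted p = 0.03598), a call lost without any of the 4 libraries (adjusted p = 0.0741 to 0.133), and Krt10 did not pass (-0.53, adjusted p = 0.614). Among 11 basal keratinocyte genes 6 rose and 1 fell. Krt14, the basal type I keratin, rose by 3.71 (SE 0.51, adjusted p = 0.0002102), 12.6-fold in mean FPKM, while its partner Krt5 went from 939 and 540.0 to 1608 and 2020.4 FPKM, a change of 1.34 (adjusted p = 0.01697) that did not pass without day 0 replicate 2 (adjusted p = 0.121) or day 3 replicate 3 (0.0944). Cdh3, encoding P-cadherin, went from 5.32 and 2.95 to 15.2 and 15.1 FPKM, a change of 1.69 (SE 0.35, adjusted p = 0.00228). Krt15, a keratin of quiescent basal and bulge cells chosen after its values were seen, stood at 945 and 628 FPKM at day 0 and 193 and 318 FPKM at day 3, lower in both day 3 libraries without passing (adjusted p = 0.0884).

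Stefin genes, which encode type 1 cystatins, rose within a cluster on chromosome 16 (mm10, 36277148 to 36455392). These small proteins inhibit cysteine proteases of the cathepsin family and are made by keratinocytes and by neutrophils. The summed FPKM of the 12 genes there went from 117 and 134 to 4946 and 3806. Of the 12, 8 were tested, and Gm4758, BC117090, the snRNA gene Gm25465 and the antisense gene Gm15845 passed the filter through day 3 alone, so that the rise of all 8 was partly set by the filter. The 4 with at least 1 FPKM in a day 0 library were Stfa1, Stfa2, Stfa3 and BC100530, and they rose. Stfa1 stood at 49.8 and 35.8 FPKM at day 0 and 2084 and 1616 FPKM at day 3 (change 5.41, SE 0.52, adjusted p = 3.35e-05), Stfa2 at 4.09 and 3.88 FPKM at day 0 and 465 and 373 FPKM at day 3 (change 6.39, SE 0.57, adjusted p = 2.66e-05), and Stfa3 at 39.5 and 75.3 FPKM at day 0 and 1812 and 1356 FPKM at day 3 (change 4.82, SE 0.41, adjusted p = 2.4e-05). For each of them both day 3 libraries were far above both day 0 libraries. The stefins are near copies, so the share of each member is uncertain, whereas the sum is less so. Csta1, a cystatin A gene chosen after its values were seen, went from 30.5 and 15.1 to 249 and 154 FPKM, a change of 3.13 (SE 0.47, adjusted p = 0.000364).

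Several other genes with large rises are known from keratinocytes. Gjb2 and Gjb6, which encode the gap junction proteins connexin 26 and connexin 30, went from 9.21 and 2.24 to 494 and 328 FPKM and from 1.87 and 1.04 to 116 and 66.03 FPKM, changes of 6.13 (SE 0.69, adjusted p = 6.48e-05) and 5.196 (SE 0.63, adjusted p = 9.61e-05). The kallikrein proteases Klk6 and Klk13, of the family that cleaves junctions between corneocytes, went from 11.2 and 5.63 to 335 and 279.9 FPKM and from 0.5305 and 0.7296 to 76.5 and 62.7 FPKM, changes of 5.097 (SE 0.63, adjusted p = 0.000107) and 5.43 (SE 0.67, adjusted p = 0.000107). Gsdmc, a member of the pore-forming gasdermin family, went from 1.57 and 1.39 to 86.7 and 80.5 FPKM, a change of 5.09 (SE 0.42, adjusted p = 2.4e-05). Gsdma, chosen after its values were seen, went from 11.5 and 6.898 to 35.97 and 27.6 FPKM, a change of 1.71 (SE 0.35, adjusted p = 0.002101). Fabp5, the epidermal fatty acid-binding protein and likewise chosen afterwards, went from 61.2 and 78.6 to 1152 and 1116 FPKM, a change of 4.01 (SE 0.39, adjusted p = 3.49e-05). The largest rises were selected for groups that do not overlap, and Gsdma and Fabp5 were chosen with their values known. The lack of overlap of these 7 genes between the days, which held for 70.5% of all genes tested, is therefore no separate result. None lost its call under an alternative other than the added requirement of a change of 1. Klk13 was under 1 FPKM in both day 0 libraries and passed the filter through day 3 alone, which set its direction.

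Of 12 integrins, laminins and other migration genes tested, 8 rose (28.6% of all genes did) and none fell, with a median of 1.01. The count was 5 under median-of-ratios scaling, 5 with the 4 libraries alone and 4 without day 3 replicate 1. Laminin-332 is the matrix over which keratinocytes migrate. Lama3, a chain of it, stood at 5.502 and 3.56 FPKM at day 0 and 37.8 and 28.1 FPKM at day 3, a change of 2.63 (SE 0.36, adjusted p = 0.000201). Lamb3, another chain, stood at 17.2 and 10.1 FPKM at day 0 and 39.1 and 31.96 FPKM at day 3, a change of 1.35 (SE 0.38, adjusted p = 0.0126). Lama3 kept its call under all alternatives, and Lamb3 did not pass without day 0 replicate 2 (adjusted p = 0.0926) or day 3 replicate 1 (0.0831). Integrin chains that bind it also rose: Itga6 from 23.2 and 16.4 to 58.9 and 55.6 FPKM (1.51, adjusted p = 0.001099), Itgb4 from 19.4 and 13.2 to 34.8 and 35.4 FPKM (1.09, adjusted p = 0.004297), and Itga3 from 11.9 and 6.89 to 20.96 and 21.4 FPKM (1.14, adjusted p = 0.00827), the last not without day 0 replicate 2 (0.0728). The hyaluronan receptor gene Cd44 went from 24.8 and 19.8 to 78.8 and 65.9 FPKM, a change of 1.66 (SE 0.28, adjusted p = 0.000731).

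Genes of the EGF family, listed with the EGF receptor, a driver of keratinocyte migration and growth, moved in both directions. Of 12 genes tested 5 rose and 2 fell, and all 12 had groups that did not overlap (70.5% of all genes tested). Of the 11 with at least 1 FPKM in a day 0 library 4 rose. Areg (amphiregulin) went from 2.72 and 0.524 to 29.9 and 22.1 FPKM, a change of 3.49 (SE 0.67, adjusted p = 0.00151). Epgn (epigen) went from 4.76 and 2.32 to 42.5 and 37.5 FPKM, a change of 3.23 (SE 0.61, adjusted p = 0.00135). Nrg1 (neuregulin 1) went from 0.144 and 0.0907 to 2.24 and 1.67 FPKM, a change of 1.395 (SE 0.31, adjusted p = 0.003400). Egf itself fell from 1.68 and 1.72 to 0.4498 and 0.416 FPKM, a change of -0.91 (SE 0.12, adjusted p = 0.000165), with both day 3 libraries under 0.5 FPKM. Nrg1 passed the filter through day 3 alone and Egf through day 0 alone. The direction and lack of overlap of both were set by the filter. Tgfa (transforming growth factor alpha) rose by 1.54 (adjusted p = 0.0384) and Btc (betacellulin) fell by 1.15 (adjusted p = 0.0325). Tgfa did not pass without day 0 replicate 2 (adjusted p = 0.194), day 3 replicate 1 (0.158) or day 3 replicate 3 (0.0872), and Btc did not without day 0 replicate 1 (0.271), day 3 replicate 1 (0.119) or day 3 replicate 3 (0.0962).

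Antimicrobial peptide genes were higher on average at day 3 in 10 of 10 tested, 4 of which had passed the filter through day 3 alone. Of the 10, 4 rose, beside 28.6% of all genes, and of the 6 with at least 1 FPKM in a day 0 library 3 rose. Defb1, a beta-defensin of epithelia, went from 25.6 and 11.03 to 109 and 93.3 FPKM, a change of 2.51 (SE 0.46, adjusted p = 0.001200). Slpi, the secretory leukocyte protease inhibitor, went from 14.8 and 7.61 to 83.9 and 58.02 FPKM, a change of 2.600 (SE 0.59, adjusted p = 0.00419). Defb14 went from 12.7 and 3.45 to 78.9 and 68.9 FPKM, a change of 3.26 (SE 0.83, adjusted p = 0.00771), with an adjusted p of 0.0627 without day 0 replicate 2. Defb8, a defensin outside that list, went the other way, from 33.4 and 30.2 to 2.61 and 2.47 FPKM, a change of -3.21 (SE 0.54, adjusted p = 0.000675), and was 1 of the 15 largest falls.

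Every cell division gene listed rose. Of 25 mitosis genes and 29 DNA replication genes, 25 and 29 were tested and 25 and 29 rose, with medians of 1.61 and 1.30. The filter kept 5 of the replication genes through the day 3 libraries alone, which set their direction, and the 24 others rose as well. Groups did not overlap for 70.5% of all genes tested. All 54 had no overlap between the days, and 25 mitosis and 28 or 29 replication genes still rose when any of the 4 libraries was left out. Promoters of 6 of them are shown because E2F and CHR elements are the known control sequences of cell cycle genes. Capitals mark the CHR letters TTTGAA (or TTCAAA, the same element on the opposite strand) in Cdk1, Cdc20, Kif11 and Ube2c, and the E2F letters TTTGGCGC (or GCGCCAAA) in Mcm5 and Mcm6.
Cdk1 (chr10:69352913-69353013, - strand): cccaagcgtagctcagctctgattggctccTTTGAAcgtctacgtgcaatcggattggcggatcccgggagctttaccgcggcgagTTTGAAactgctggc
Cdc20 (chr4:118437344-118437391, - strand): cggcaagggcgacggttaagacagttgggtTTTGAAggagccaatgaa
Kif11 (chr19:37376333-37376381, + strand): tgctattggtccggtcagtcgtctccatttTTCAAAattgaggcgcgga
Ube2c (chr2:164769870-164769928, + strand): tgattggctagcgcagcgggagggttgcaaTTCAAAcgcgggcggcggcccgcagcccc
Mcm5 (chr8:75109330-75109397, + strand): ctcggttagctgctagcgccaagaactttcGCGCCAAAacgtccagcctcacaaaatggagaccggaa
Mcm6 (chr1:128359715-128359845, - strand): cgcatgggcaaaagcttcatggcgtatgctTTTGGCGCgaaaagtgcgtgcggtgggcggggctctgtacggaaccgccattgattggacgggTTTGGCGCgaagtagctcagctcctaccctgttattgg
Searched on both strands within 250 bases upstream, TTTGAA was found in 7 of 20 mitosis genes with a promoter entry (35%) and in 10.6% of all 9468. TTTCCCGC or TTTGGCGC was found in 5 of 23 replication genes (21.7%) and in 2.47% of all.

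Mki67, the proliferation marker Ki-67, stood at 3.75 and 6.56 FPKM at day 0 and 22.3 and 22.4 FPKM at day 3, a change of 1.96 (SE 0.22, adjusted p = 5.79e-05). Cyclin B1 (Ccnb1) went from 2.58 and 3.61 to 16.1 and 16.04 FPKM, a change of 2.07 (SE 0.19, adjusted p = 2.74e-05). Its kinase Cdk1 went from 2.103 and 3.397 to 12.6 and 11.1 FPKM, a change of 1.79 (SE 0.20, adjusted p = 6.59e-05). Cdc20, the activator of the anaphase-promoting complex, went from 5.41 and 8.63 to 26.4 and 28.9 FPKM, a change of 1.86 (SE 0.24, adjusted p = 0.000148). Topoisomerase Top2a went from 2.91 and 5.24 to 18.2 and 19.1 FPKM, a change of 1.99 (SE 0.20, adjusted p = 4.43e-05). In all 5 the day 3 libraries lay close together and day 0 replicate 2 was above day 0 replicate 1. Among replication genes, Mcm5, a subunit of the replicative helicase, had the largest rise, from 2.25 and 4.105 to 18.3 and 19.8 FPKM, a change of 2.298 (SE 0.21, adjusted p = 3.06e-05). The ribonucleotide reductase subunit Rrm2 went from 4.03 and 10.00 to 28.1 and 27.5 FPKM, a change of 1.95 (SE 0.31, adjusted p = 0.000443). The maintenance methylation factor Uhrf1 went from 2.197 and 4.08 to 14.03 and 13.8 FPKM, a change of 1.89 (SE 0.20, adjusted p = 4.57e-05). Of 23 p53 target genes 6 rose and 7 fell, beside 28.6% and 13.9% of all genes. The cell cycle inhibitor Cdkn1a (p21), chosen after its values were seen, stood at 79.1 and 136 FPKM at day 0 and 114 and 90.5 FPKM at day 3 (-0.03, adjusted p = 0.918), and Ccng1 (cyclin G1) fell from 156 and 158 to 50.2 and 58.7 FPKM, a change of -1.51 (SE 0.15, adjusted p = 4.17e-05). Pmaip1, the death effector Noxa, rose from 1.89 and 3.13 to 21.4 and 14.6 FPKM, by 2.44 (SE 0.34, adjusted p = 0.000223). The number of p53 targets that fell was 11 under median-of-ratios scaling and 4 without day 0 replicate 2 or without day 3 replicate 1.

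Cholesterol synthesis genes rose as a set. The filter kept 1 of the 22 tested through the day 3 libraries alone. No gene overlapped between the days, which held for 70.5% of all genes tested. Of the 22, 21 rose (28.6% of all genes did) and none fell, with a median of 1.09. The count was 14 to 19 when a library was left out. Idi1, which makes dimethylallyl pyrophosphate, went from 6.56 and 8.67 to 29.6 and 43.98 FPKM, a change of 2.12 (SE 0.24, adjusted p = 6.38e-05). Hsd17b7 and Sqle, enzymes of the sterol and squalene steps, went from 6.34 and 7.35 to 31.7 and 33.8 FPKM and from 7.31 and 6.77 to 28.9 and 33.02 FPKM, changes of 2.11 (SE 0.33, adjusted p = 0.0004096) and 1.99 (SE 0.29, adjusted p = 0.000264). Day 3 replicate 3 was the higher day 3 library for all 3 genes and for Lss (8.097 and 12.7 FPKM). The sebaceous gland list, whose cells also make lipid, had 5 of 20 genes rise and 1 fall, and the 5 became 1 without day 0 replicate 1 and 1 without day 3 replicate 3. Of these, Elovl3, a fatty acid elongase of the gland, stood at 32.3 and 51.04 FPKM at day 0 and 111 and 208 FPKM at day 3, a change of 1.88 (adjusted p = 0.0117), with adjusted p = 0.0862 and 0.0994 in those 2 fits. Beside these 5 of 20 sebaceous gland genes, 28.6% of all genes rose. The part of the gland in the cholesterol result was not tested.

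Of 30 hypoxia and glycolysis genes tested, 17 rose and 2 fell, beside 28.6% and 13.9% of all genes. The 17 were 12 to 14 under the 3 other scalings and 12 with the 4 libraries alone. Hif1a, the oxygen-regulated subunit of the hypoxia-inducible factor, went from 13.7 and 13.1 to 62.9 and 51.03 FPKM, a change of 2.002 (SE 0.36, adjusted p = 0.000973). The glucose transporter Slc2a1 went from 15.1 and 13.2 to 84.4 and 74.9 FPKM, a change of 2.41 (SE 0.26, adjusted p = 5.44e-05). Vegfa, a classical target of that factor, did not pass (from 22.5 and 14.2 to 30.2 and 20.1 FPKM, 0.44, adjusted p = 0.287). The pairs that follow include genes chosen after their values were seen. Eno1, Pgam1 and Pfkl, the enolase, phosphoglycerate mutase and phosphofructokinase of most non-muscle tissues, went from 36.7 and 49.6 to 246 and 215 FPKM, from 27.7 and 31.3 to 165 and 142 FPKM and from 4.68 and 4.53 to 23.2 and 20.97 FPKM, with changes of 2.401 (adjusted p = 2.4e-05), 2.34 (adjusted p = 2.4e-05) and 2.04 (adjusted p = 2.66e-05). Their muscle counterparts Eno3, Pgam2 and Pfkm fell, from 1116 and 531 to 130.4 and 137 FPKM, from 1055 and 385 to 70.4 and 70.4 FPKM and from 381 and 203 to 45.3 and 57.1 FPKM, with changes of -2.52 (adjusted p = 0.000585), -3.16 (adjusted p = 8.94e-05) and -2.43 (adjusted p = 0.000158). On the FPKM scale, which is per length, the muscle form was the more abundant of each pair in both day 0 libraries. At day 3 the order was reversed for enolase and phosphoglycerate mutase, and Pfkm remained above Pfkl. Aldoa, the aldolase gene used by muscle and other cells and chosen after its values were seen, fell from 1565 and 1184 to 320.0 and 363 FPKM, a change of -1.99 (adjusted p = 2.4e-05). Ldha, chosen likewise, did not pass (from 509 and 322 to 437 and 426 FPKM, 0.09, adjusted p = 0.781).

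The same arrangement was seen in 12 pairs of a muscle-type gene and a related form, which were chosen after their values were seen and are given as a description. The muscle-type member fell in 12 of 12. The partner rose in 11, and in the remaining pair, Cox7a1 and Cox7a2, the partner did not pass (-2.85 and 0.11). The glucose transporters Slc2a4 (GLUT4, of muscle and fat) and Slc2a1 changed by -2.299 and 2.41, the mitochondrial creatine kinases Ckmt2 and Ckmt1 by -2.98 and 1.66, and the ADP/ATP carriers Slc25a4 and Slc25a5 by -2.08 and 1.38. The calcium pumps Atp2a1 and Atp2a2 changed by -2.95 and 1.05, and the fatty acid-binding proteins Fabp3 and Fabp5 by -2.67 and 4.01. Rpl3l, the ribosomal protein paralog of muscle, fell from 109.8 and 49.8 to 7.62 and 7.66 FPKM, a change of -3.12 (SE 0.36, adjusted p = 8e-05), beside 0.57 for Rpl3. The partners' calls were the less steady: fitted to the 4 libraries alone, the adjusted p was 0.0908 for Atp2a2, 0.0869 for Rpl3, 0.0769 for Cox6a1 and 0.159 for Cox8a. Without day 3 replicate 3 it was 0.102 for Cox8a, and under median-of-ratios scaling 0.2897 for Cox8a and 0.0826 for Cox6a1.

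**Figure D3:**
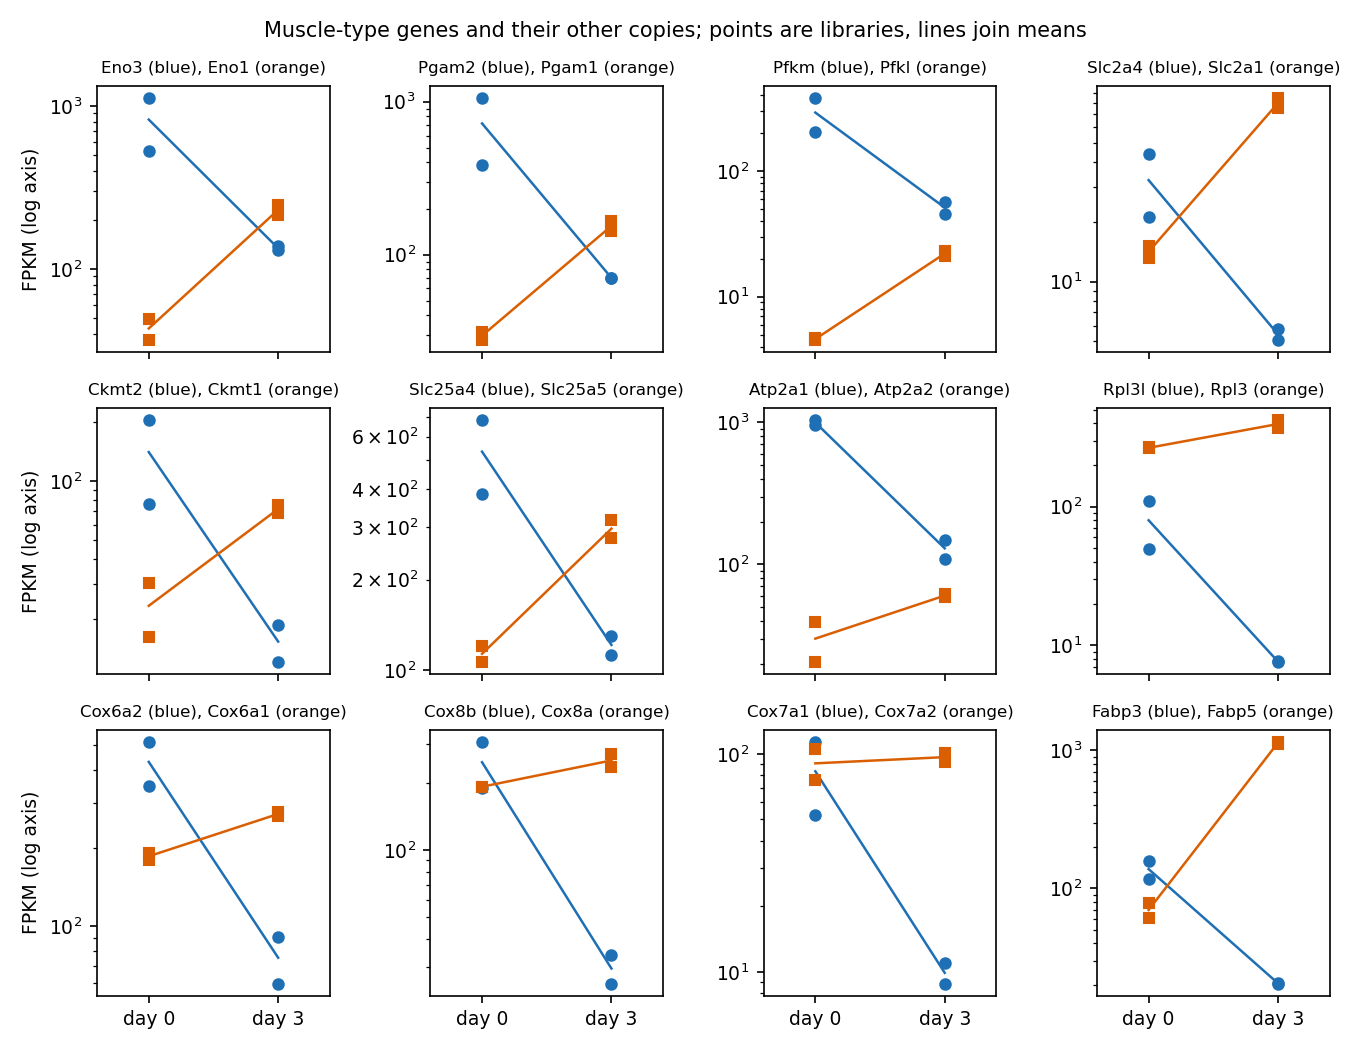
FPKM on log axes of 12 muscle-type genes (blue circles) and a related form (orange squares) at day 0 and day 3. Points are libraries and lines join the means of 2 libraries, and the vertical scales differ between panels. Every blue line falls, and every orange line rises or, for Cox7a2, stays within the spread of the day 0 libraries.

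Mature skeletal muscle genes fell as a group. Of 24 mature skeletal muscle genes tested, 23 fell and none rose, with a median of -2.51 beside 0.17 for all genes, and the summed FPKM of the list went from 32171 and 26176 to 4195 and 5850. Of all genes tested, 13.9% fell and 70.5% had no overlap between the days. All 24 had no overlap between the days, and 21 or 22 still fell when a library was left out. Promoters of 3 members are shown with the E-box CAGCTG, a sequence bound by myogenic basic helix-loop-helix factors, in capitals.
Myh4 (chr11:67237715-67237780, + strand): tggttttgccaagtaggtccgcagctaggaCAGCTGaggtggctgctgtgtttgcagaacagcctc
Atp2a1 (chr7:126463093-126463158, - strand): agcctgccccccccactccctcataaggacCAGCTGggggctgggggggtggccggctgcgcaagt
Mylpf (chr7:127211527-127211592, + strand): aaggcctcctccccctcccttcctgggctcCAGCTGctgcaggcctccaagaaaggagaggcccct
CAGCTG reads the same on both strands and was found within 250 bases upstream of 8 of the 16 muscle genes with a promoter entry (50%) and of 12.1% of all 9468. A MEF2-type site, searched on both strands, was found in 1 of the 16 and in 2.60% of all.

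Acta1, skeletal muscle actin, stood at 10054 and 8582 FPKM at day 0 and 1418 and 2040.5 FPKM at day 3, a change of -2.45 (SE 0.45, adjusted p = 0.001105). Pvalb, the calcium buffer parvalbumin of fast fibres, went from 2233 and 1348 to 95.8 and 152 FPKM, a change of -3.83 (SE 0.65, adjusted p = 0.000742). Myh4, the fast type IIb myosin heavy chain, went from 794 and 581 to 44.7 and 84.5 FPKM, a change of -3.45 (SE 0.75, adjusted p = 0.00318), with an adjusted p of 0.0566 under array quality weights. Myoz1 and Tcap, proteins of the Z-disc, went from 359 and 185 to 21.8 and 28.7 FPKM and from 882 and 673 to 89.2 and 106 FPKM, changes of -3.31 (SE 0.44, adjusted p = 0.000161) and -2.97 (SE 0.37, adjusted p = 0.000108). Day 0 replicate 1 was the higher day 0 library for each of these 5 genes and day 3 replicate 3 the higher day 3 library. Among single genes with large falls, Pygm (muscle glycogen phosphorylase) went from 485 and 307 to 41.6 and 54.6 FPKM, a change of -2.99 (adjusted p = 9.39e-05). Pdk4 (pyruvate dehydrogenase kinase) went from 378 and 187 to 19.6 and 24.6 FPKM, a change of -3.54 (adjusted p = 0.0003800). Fbxo32 (the ubiquitin ligase atrogin-1) went from 59.1 and 76.8 to 5.12 and 10.3 FPKM, a change of -3.04 (adjusted p = 0.00189). The tropomyosins Tpm1 and Tpm2, placed in the smooth muscle list but shared with striated muscle, fell, with changes of -2.19 (adjusted p = 3.35e-05) and -2.22 (adjusted p = 5.93e-05). Acta2, the smooth muscle and myofibroblast actin, did not pass (from 69.9 and 98.7 to 124 and 103 FPKM, 0.44, adjusted p = 0.404).

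Genes of muscle regeneration set the 2 day 0 libraries apart. None of 13 tested passed in either direction by limma with all libraries (1 at an unadjusted p under 0.05, lower, and 0 by limma-voom). Without day 0 replicate 1, 7 were lower, and without day 0 replicate 2, 5 were higher. Myog, the differentiation factor myogenin, stood at 18.3 and 94.3 FPKM at day 0 and 35.2 and 45.9 FPKM at day 3 (-0.06, adjusted p = 0.946), Myh3, the embryonic myosin heavy chain, at 1.41 and 49.6 FPKM at day 0 and 10.7 and 6.905 FPKM at day 3 (-0.20, adjusted p = 0.903), and Mymk, the fusion factor myomaker, at 1.405 and 37.1 FPKM at day 0 and 10.5 and 9.24 FPKM at day 3 (0.18, adjusted p = 0.896), all 3 chosen after their values were seen. For each of them both day 3 libraries lay between the day 0 libraries, with replicate 2 of day 0 the highest.

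Transcripts of respiration also fell. All 12 mitochondrially encoded genes tested fell, with a median of -1.48, and all 12 were higher in both day 0 libraries than in either day 3 library. Among all genes tested, 13.9% fell and 70.5% had groups that did not overlap. The smallest fall was that of mt-Nd1, from 23195 and 13315 to 7225 and 9364 FPKM, a change of -1.095 (SE 0.26, adjusted p = 0.00505). The largest was that of mt-Co3, from 953 and 286 to 100.4 and 81.7 FPKM, a change of -2.51 (SE 0.43, adjusted p = 0.000783). Day 0 replicate 1 held the highest value of each of the 2. With the 4 libraries alone 1 of the 12 fell (mt-Atp6, from 253 and 157 to 74.02 and 76.6 FPKM in these libraries), and with quantile normalization 8 did. The adjusted p of mt-Co3 was 0.05698 with the 4 libraries alone, and that of mt-Nd1 was 0.0568 without day 0 replicate 1 and 0.0545 without day 3 replicate 1, and 1 with quantile normalization. Among 30 nuclear genes of the respiratory chain 21 fell and 1 rose, with a median of -0.51. Cox5a of complex IV went from 44.9 and 35.4 to 20.1 and 22.2 FPKM (-0.89, adjusted p = 0.000549). It fell under every alternative but the added requirement of a change of 1, while the count of falls was 27 under each of the 3 other scalings and 2 with the 4 libraries alone. Muscle is rich in mitochondria, and the summed muscle markers given before moved in the same direction, but their part in the fall of respiratory transcripts was not tested.

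Most neutrophil and monocyte markers were higher on average at day 3, and a minority passed. Of 22 neutrophil markers tested 21 were higher on average at day 3 and 4 rose (18.2%, beside 28.6% of all genes), with a median of 1.32. They included the stefins Stfa2 and Stfa3, which keratinocytes also express, and Ncf4, a subunit of the phagocyte oxidase, whose change was 1.28 (adjusted p = 0.0489). Ncf4 did not pass without day 0 replicate 1 (adjusted p = 0.296), day 3 replicate 1 (0.229) or day 3 replicate 3 (0.0754), nor under any of the 3 other scalings. The number that rose was 2 without day 0 replicate 1, 2 without day 3 replicate 1, 2 under each other scaling and 8 with the 4 libraries alone. The summed FPKM of the marker list was 925 and 640 at day 0 and 5696 and 3661 at day 3, in which Stfa2 and Stfa3 are included. Of 8 neutrophil chemokine and receptor genes tested 3 rose: Cxcl5 from 2.22 and 1.55 to 74.2 and 45.4 FPKM (4.37, adjusted p = 0.0395), Cxcr2 from 3.91 and 1.58 to 20.5 and 12.8 FPKM (2.27, adjusted p = 0.0247) and Csf3r from 3.88 and 3.501 to 23.99 and 16.4 FPKM (2.15, adjusted p = 0.0237). The 3 became 1 without day 0 replicate 1 and 0 without any of the other 3 libraries in turn, and 0 with the replicate block. The largest adjusted p of these fits was 0.158 for Cxcl5, 0.138 for Cxcr2 and 0.128 for Csf3r, each without day 3 replicate 1. Cxcl1 (1.01, adjusted p = 0.592), Cxcl2 (1.03, adjusted p = 0.473), Cxcl3 (1.902, adjusted p = 0.2602), Ppbp (2.46, adjusted p = 0.06503) and Csf3 (-0.06, adjusted p = 0.9797) did not pass.

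Of 27 monocyte and macrophage markers 10 rose and 1 fell, beside 28.6% and 13.9% of all genes. The number that rose was 2 with the 4 libraries alone, 1 without day 0 replicate 1, 1 without day 3 replicate 1, 7 without day 3 replicate 3 and 13 without day 0 replicate 2, and 5 or 6 under the other scalings. Arg1, an arginase of wound macrophages that other cells also make, stood at 26.3 and 13.4 FPKM at day 0 and 246 and 152 FPKM at day 3, a change of 3.29 (SE 0.65, adjusted p = 0.00183) that no alternative removed. Retnla, a secreted protein of alternatively activated macrophages, had the largest fall of any gene tested, from 81.2 and 240.3 to 2.73 and 6.26 FPKM, a change of -4.76 (SE 0.94, adjusted p = 0.00176), and it too kept its call throughout. Cd68, a general macrophage marker, went from 18.5 and 71.8 to 119 and 91.95 FPKM (1.49, adjusted p = 0.0182), with an adjusted p of 0.177 without day 0 replicate 1 and 0.1096 without day 3 replicate 1. Among 12 monocyte chemokine genes 5 rose, and this became 0 with the 4 libraries alone, 2 with the replicate block, 1 without day 0 replicate 1, 2 without day 3 replicate 1 and 3 without day 3 replicate 3. For comparison with the 5 of 12 chemokine genes, 28.6% of all genes rose. The ligand Ccl12 went from 3.001 and 8.49 to 16.7 and 16.1 FPKM, a change of 1.495 (SE 0.33, adjusted p = 0.003604). Ccl8 went from 43.5 and 153 to 320.4 and 385 FPKM, a change of 2.09 (adjusted p = 0.0116) with adjusted p = 0.133 without day 0 replicate 1 and 0.0612 without day 3 replicate 3.

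Cytokine and acute-phase genes showed a few large rises. Of 14 interleukin 1 and tumour necrosis factor genes tested 4 rose, and of 17 interleukin 6 family and acute-phase genes 3 rose. None fell in either list, and 28.6% of all genes rose. The 4 were 1 or 2 under the other scalings, and the 3 stayed 3. Il33, a nuclear cytokine released from damaged keratinocytes and stromal cells, stood at 20.05 and 18.3 FPKM at day 0 and 368 and 258 FPKM at day 3, a change of 3.94 (SE 0.45, adjusted p = 7.12e-05). Il24, a cytokine of wound-margin epidermis, went from 0.312 and 0.363 to 10.2 and 9.296 FPKM, a change of 3.01 (SE 0.73, adjusted p = 0.006102). Saa3, an acute-phase serum amyloid A gene, went from 0.603 and 2.302 to 220.0 and 242 FPKM, a change of 6.65 (SE 1.51, adjusted p = 0.00406). In all 3 genes both day 3 libraries exceeded both day 0 libraries, and no alternative removed a call. Il24, and Il6 named next, were under 1 FPKM in both day 0 libraries. They passed the filter through day 3 alone, which set their direction. The inflammatory cytokine genes did not pass: Il1b stood at 124 and 71.6 FPKM at day 0 and 282 and 108 FPKM at day 3 (0.89, adjusted p = 0.555), Tnf at 3.89 and 4.29 FPKM at day 0 and 9.84 and 3.68 FPKM at day 3 (0.49, adjusted p = 0.539), and Il6 at 0.2105 and 0.0966 FPKM at day 0 and 1.53 and 1.18 FPKM at day 3 (1.03, adjusted p = 0.4396). Day 3 replicate 1 was the higher day 3 library for Il1b and Tnf, and for Tnf the groups overlapped. Of 29 interferon response genes tested, none passed by limma in either direction under any setting run, limma-voom included, and 0 had an unadjusted p under 0.05. Of the 29, 9 were higher on average at day 3, with a median of -0.26. The prostaglandin genes Ptges (prostaglandin E synthase) and Pla2g4e (a cytosolic phospholipase A2) rose from 8.94 and 8.305 to 44.8 and 37.9 FPKM and from 3.86 and 1.52 to 17.1 and 15.4 FPKM, by 2.13 (adjusted p = 0.000145) and 2.299 (adjusted p = 0.00613), among 6 of 15 that rose, a count of 3 or 4 under the other scalings.

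Among markers of other resident and blood cells few passed, while 28.6% of all genes rose and 13.9% fell. By limma and by limma-voom 0 genes passed among 9 mast cell, 5 red blood cell, 2 B cell and 9 melanocyte genes tested, of which 1 mast cell and 1 melanocyte gene had an unadjusted p under 0.05. The mast cell genes had a median of 1.06 beside 0.17 for all genes, 8 of 9 were higher on average at day 3, and all 9 had groups that did not overlap (70.5% of all genes tested). Of these 9, 2 rose without day 0 replicate 2, 2 with the 4 libraries alone and 1 with a minimum FPKM of 5. Of the T cell list, which includes Fgf7, 3 of 24 genes were tested. Hbb-bs, an adult beta-globin, stood at 94.6 and 139.6 FPKM at day 0 and 88.7 and 122 FPKM at day 3 (-0.14, adjusted p = 0.849), with overlapping groups. Of 22 adipocyte genes 1 fell, the transporter Slc2a4 shared with muscle, and Adipoq stood at 41.8 and 66.2 FPKM at day 0 and 45.7 and 43.3 FPKM at day 3 (-0.24, adjusted p = 0.783). Of 13 Schwann cell and nerve genes 2 fell (Prx and Cnp), which was 0 or 1 without any single library, 0 with the replicate block and 4 to 6 under the other scalings. Of 28 inner root sheath and hair shaft genes 3 were tested.

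Few genes of the dermal matrix passed at this time. Of 29 collagen and collagen-processing genes tested 1 rose and none fell, with a median of 0.38. Col1a1 stood at 253 and 973 FPKM at day 0 and 669 and 316 FPKM at day 3 (-0.11, adjusted p = 0.9001) and Col3a1 at 197 and 759.7 FPKM at day 0 and 679 and 391 FPKM at day 3 (0.41, adjusted p = 0.584), and in both the day 3 libraries lay between the day 0 libraries. Without day 0 replicate 2, the day 0 library with the higher collagen values, 8 collagen genes and 8 of 18 elastic fibre and proteoglycan genes rose, against 1 and 2 with all libraries, and without day 0 replicate 1 the latter were 0. The gene that rose was Col18a1, the basement membrane collagen that holds endostatin, from 10.5 and 20.7 to 43.6 and 38.9 FPKM, by 1.41 (SE 0.26, adjusted p = 0.00126), with an adjusted p of 0.05502 in the 4 libraries alone. Fibronectin, Fn1, chosen after its values were seen, stood at 12.8 and 95.5 FPKM at day 0 and 41.5 and 34.4 FPKM at day 3 (0.09, adjusted p = 0.932). Of 16 fibroblast genes tested 2 rose and 1 fell, beside 28.6% and 13.9% of all genes. Their median was -0.21, and 6 of the 16 were higher on average at day 3. Crabp1, a retinoic acid-binding protein of papillary and wound fibroblasts, had the largest rise of that list, from 12.99 and 13.5 to 78.8 and 67.7 FPKM, by 2.38 (SE 0.48, adjusted p = 0.00214).

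Of 15 provisional matrix genes 4 rose, which was 2 without day 0 replicate 1 or day 3 replicate 1 and 7 without day 0 replicate 2. Beside these 4 of 15, 28.6% of all genes rose. The hyaluronan synthases Has3 and Has2 went from 1.08 and 0.405 to 13.8 and 12.01 FPKM and from 0.659 and 1.43 to 8.51 and 5.52 FPKM, changes of 3.02 (SE 0.44, adjusted p = 0.000269) and 1.97 (SE 0.44, adjusted p = 0.00369) that every alternative kept. Tnc, encoding the wound matrix protein tenascin-C, went from 2.95 and 15.9 to 76.4 and 49.6 FPKM, a change of 2.94 (SE 0.78, adjusted p = 0.00977), with adjusted p = 0.109 without day 0 replicate 1 and 0.0703 without day 3 replicate 1. Of 24 metalloproteinase and inhibitor genes 6 rose and 2 fell, and the 6 were 1 to 3 without day 0 replicate 1 or either day 3 library and 8 without day 0 replicate 2. The filter kept 2 of the 24 through day 3 alone, 1 of which rose, and among all genes 28.6% rose. Adam8, a membrane protease of leukocytes and activated epithelium, went from 8.704 and 7.02 to 37.5 and 22.2 FPKM, a change of 1.76 (SE 0.36, adjusted p = 0.00218). Thbd (thrombomodulin), a thrombin receptor also found on suprabasal keratinocytes, rose from 14.9 and 20.6 to 40.4 and 41.9 FPKM, by 1.18 (SE 0.23, adjusted p = 0.00154).

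The TGF-beta pathway is named in the title of the series. TGF-beta ligands are held latent in the matrix, signal through a receptor pair to SMAD2 and SMAD3 with SMAD4, and are restrained by SMAD7, SKI and SKIL. Of 32 ligand, receptor and SMAD genes tested 8 rose and 3 fell, neither a larger share than the 28.6% and 13.9% of all genes, with a median of 0.18 beside 0.17 for all genes. The 3 falls were 1 without day 0 replicate 2 or day 3 replicate 1. Among ligands, Tgfb1 stood at 4.78 and 11.1 FPKM at day 0 and 19.7 and 15.5 FPKM at day 3 (1.14, SE 0.32, adjusted p = 0.0135), with an adjusted p of 0.153 without day 0 replicate 1, 0.0972 without day 3 replicate 1 and 0.108 in the 4 libraries alone. Tgfb2 fell from 3.88 and 4.91 to 2.13 and 2.22 FPKM, a change of -0.76 (SE 0.19, adjusted p = 0.00823), though not without day 0 replicate 2 (adjusted p = 0.0551), and Tgfb3 did not pass (-0.42, adjusted p = 0.2999). The activin subunit gene Inhbb rose from 4.02 and 3.37 to 9.39 and 9.37 FPKM, by 1.15 (SE 0.25, adjusted p = 0.002902), and its relative Inhba did not pass (1.23, adjusted p = 0.111). Follistatin (Fst), which traps activin, fell from 18.3 and 18.6 to 8.91 and 10.5 FPKM, a change of -0.87 (SE 0.22, adjusted p = 0.00696), with an adjusted p of 0.0597 without day 3 replicate 1.

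Receptors Tgfbr1 (0.29, adjusted p = 0.314) and Tgfbr2 (0.15, adjusted p = 0.748) did not pass, and the co-receptor gene Eng (endoglin) rose from 15.3 and 20.7 to 38.7 and 33.4 FPKM, by 0.98 (SE 0.22, adjusted p = 0.00396). Smad2 rose from 7.14 and 7.79 to 13.4 and 12.6 FPKM, by 0.73 (SE 0.10, adjusted p = 0.000232), whereas Smad3 fell from 9.75 and 13.2 to 7.71 and 7.77 FPKM, a change of -0.50 (SE 0.15, adjusted p = 0.0179). Smad3 did not pass without day 0 replicate 2 (adjusted p = 0.147), day 3 replicate 1 (0.0785) or day 3 replicate 3 (0.0656), and the difference between the 2 genes' changes was not tested. Smad4 (-0.04, adjusted p = 0.8402) and the inhibitor Smad7 (0.29, adjusted p = 0.275) did not pass. Skil, both a target and a repressor of the pathway, rose from 2.85 and 3.92 to 8.202 and 7.02 FPKM, by 0.98 (SE 0.19, adjusted p = 0.00183). Of 18 TGF-beta target genes 6 rose and 1 fell, and the 6 were 3 without day 3 replicate 1. For comparison with these targets, 28.6% of all genes rose and 13.9% fell. Tgfbi and Snai2 rose from 104 and 99.8 to 206 and 197 FPKM and from 8.71 and 6.85 to 16.8 and 15.4 FPKM, by 0.98 (adjusted p = 0.00392) and 0.97 (adjusted p = 0.000376).

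Of 26 FGF, HGF, PDGF and IGF genes 2 rose and 4 fell, the falls being a share near the 13.9% of all genes that fell. The 2 were 0 without day 0 replicate 1 or either day 3 library and 4 without day 0 replicate 2, while the 4 were 7 without day 0 replicate 1. Igfbp3 and Igfbp6, which bind insulin-like growth factors, fell from 92.5 and 95.8 to 36.6 and 36.9 FPKM and from 104 and 289.8 to 32.05 and 36.8 FPKM, a change of -1.33 (SE 0.12, adjusted p = 2.58e-05) and -2.31 (SE 0.50, adjusted p = 0.00297). Fgf18 fell from 15.2 and 7.91 to 2.32 and 2.56 FPKM, a change of -1.805 (SE 0.38, adjusted p = 0.00284), and Fgf7, the keratinocyte growth factor, did not pass (0.18, adjusted p = 0.846). Of 25 Wnt and BMP genes 5 rose and 5 fell, and leaving out a library gave 2 to 4 and 1 to 3. The shares of all genes were 28.6% rising and 13.9% falling. Wnt5a and the Wnt antagonist Sfrp1 rose from 1.45 and 1.54 to 5.81 and 4.22 FPKM and from 6.84 and 9.18 to 15.9 and 20.04 FPKM, by 1.26 (adjusted p = 0.000699) and 1.08 (adjusted p = 0.00133). Among 28 endothelial genes 10 rose and 1 fell, the 10 being 4 without day 0 replicate 1 and 6 without day 3 replicate 1. The apelin receptor gene Aplnr, a marker of sprouting vessels, went from 4.17 and 7.21 to 25.4 and 20.2 FPKM, a change of 1.86 (SE 0.40, adjusted p = 0.00319). Its ligand Apln went from 0.599 and 2.38 to 9.34 and 6.62 FPKM, a change of 1.93 (SE 0.46, adjusted p = 0.005401), with adjusted p = 0.0615 without day 0 replicate 1.

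Stress and timing genes changed in both directions. Gsta4, a glutathione transferase for lipid peroxidation products, had the largest change of the oxidative stress list, from 12.02 and 7.76 to 362 and 321 FPKM, by 5.0 (SE 0.70, adjusted p = 0.000222). Hmox1 (heme oxygenase 1) and Nqo1 rose from 53.3 and 73.98 to 246 and 171 FPKM and from 7.19 and 8.201 to 19.3 and 22.9 FPKM, by 1.69 (adjusted p = 0.00106) and 1.34 (adjusted p = 0.00345). Mt4, the metallothionein of stratified epithelium, fell from 99.6 and 62.7 to 2.91 and 6.78 FPKM, a change of -3.86 (SE 1.18, adjusted p = 0.0199), but not without day 0 replicate 1 (adjusted p = 0.0963) or day 3 replicate 1 (0.117). Of 20 unfolded protein response genes 13 rose and 1 fell, and the 13 were 7 under each other scaling, 5 to 7 without day 0 replicate 1 or either day 3 library, and 2 in the 4 libraries alone. Among all genes 28.6% rose and 13.9% fell. Trib3 and Edem1 rose from 2.81 and 2.56 to 9.56 and 9.36 FPKM and from 7.08 and 9.999 to 19.6 and 16.7 FPKM, by 1.51 (adjusted p = 0.000961) and 1.02 (adjusted p = 0.000695), under every scaling. Of 18 circadian clock genes 3 rose and 5 fell, beside 28.6% and 13.9% of all genes, and the rises were 1 under each other scaling. The falls were 9 or 10 under quantile and median-of-ratios scaling and 2 without day 0 replicate 1 or day 3 replicate 1. Nr1d1, the clock repressor REV-ERB alpha, fell from 34.6 and 39.00 to 11.5 and 9.13 FPKM, a change of -1.74 (SE 0.24, adjusted p = 0.0001903), and Cry1 rose from 3.82 and 3.05 to 5.99 and 5.98 FPKM, by 0.66 (adjusted p = 0.00147). The labels used here give no hour of sampling.

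**Figure D4:**
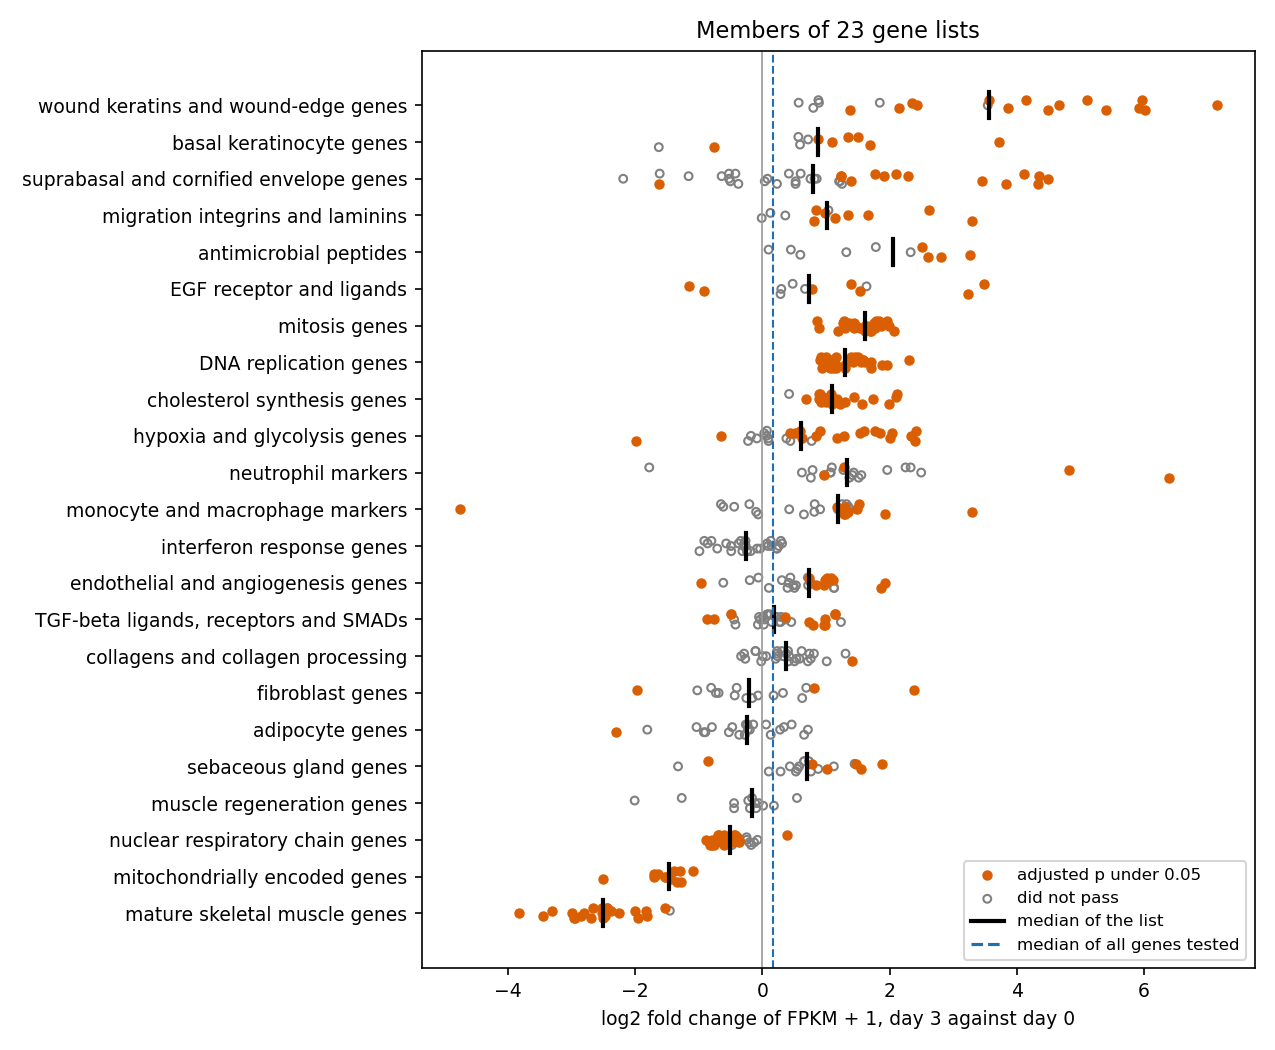
Log2 fold change of FPKM + 1, day 3 against day 0, of every tested member of 23 gene lists. Each point is a gene, filled where its adjusted p was under 0.05, the black bar is the list's median, and the dashed line is the median of all 13876 genes (0.17). All mitosis and replication members lie to the right, all mature muscle and mitochondrially encoded members to the left, and fibroblast and interferon members on both sides of 0.

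The later control days show how the day 3 values stood in time. These comparisons share the day 3 libraries with the comparison above, so values are given side by side and no agreement between them is read as a result. At day 6, 1 gene of 13876 (0.00721%) differed from day 3: Mdk, which encodes the growth factor midkine, with 3.86 and 2.47 FPKM at day 3 and 14.01 and 20.2 FPKM at day 6, a change of 2.12 (SE 0.27, adjusted p = 0.0480). At an unadjusted p under 0.05 there were 304 higher and 1347 lower genes. At day 9, 2498 genes (18%) differed from day 3, 960 (6.92%) higher and 1538 (11.1%) lower. The median change of all genes was -0.09. The split was 1447 and 1025 under median-of-ratios scaling, 1551 and 1089 under quantile normalization, and 986 and 841 under nuclear scaling. The day 9 count was 1132 without day 3 replicate 1 and 169 without day 3 replicate 3.

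At days 6 and 9 Krt6b stayed above its day 0 values. It stood at 4491 and 2437 FPKM at day 6 and 2151, 895 and 1362 FPKM at day 9, a difference of -1.26 (adjusted p = 0.122) from day 3, and by limma none of the 21 wound-edge genes passed against day 3 at day 6 (2 higher at an unadjusted p under 0.05) or at day 9 (4 lower). Itga6, at 22.5, 15.95 and 18.2 FPKM (-1.56, adjusted p = 0.00313), was lower at day 9 than at day 3, and Krt14, at 7338, 3141 and 3939.9 FPKM (-1.25, adjusted p = 0.0841), did not pass. Lower at day 9 than at day 3 were 11.1% of all genes, 5 of 25 mitosis genes and 14 of 29 replication genes. Mki67 did not pass (19.8, 17.9 and 13.5 FPKM, -0.38, adjusted p = 0.192). Cholesterol synthesis genes were lower in 15 of 22, with Idi1 at 11.9, 8.905 and 10.00 FPKM (-1.73, adjusted p = 0.00123), and sebaceous gland genes in 19 of 20. Hypoxia and glycolysis genes were lower in 17 of 30, with Slc2a1 at 36.3, 27.2 and 43.2 FPKM (-1.16, adjusted p = 0.00804). For the lists, day 9 counts with a library left out are not given here.

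Collagen genes, of which 1 had risen by day 3, were higher at day 9 than at day 3 in 19 of 29 (6.92% of all genes), with a median of 1.91. Col1a1 stood at 665 and 1713 FPKM at day 6 and 3621, 3741 and 2896 FPKM at day 9 (2.88, adjusted p = 0.00647). Elastic fibre and proteoglycan genes were higher in 12 of 18, and Acta2 by 1.72 (adjusted p = 0.00992). Of the mature muscle genes 9 of 24 were lower still at day 9 (11.1% of all genes) and none were higher, with Acta1 at 454, 757 and 908 FPKM (-1.32, adjusted p = 0.0427). Retnla stood at 16.4, 24.6 and 17.1 FPKM at day 9 (1.95, adjusted p = 0.1297), under both day 0 libraries and without passing. Il33 was lower at day 9, at 89.7, 37.7 and 109.5 FPKM (-2.09, adjusted p = 0.00676), and Arg1 did not pass (116, 94.9 and 312 FPKM, -0.36, adjusted p = 0.712). H19, an imprinted long non-coding RNA chosen after its values were seen, went from 393 and 634 to 58.9 and 53.8 FPKM (day 3 against day 0 -3.13, adjusted p = 0.000145), and stood at 313 and 290.0 FPKM at day 6 and 273, 325 and 304 FPKM at day 9 (2.39, adjusted p = 0.00259 against day 3).

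**Figure D5:**
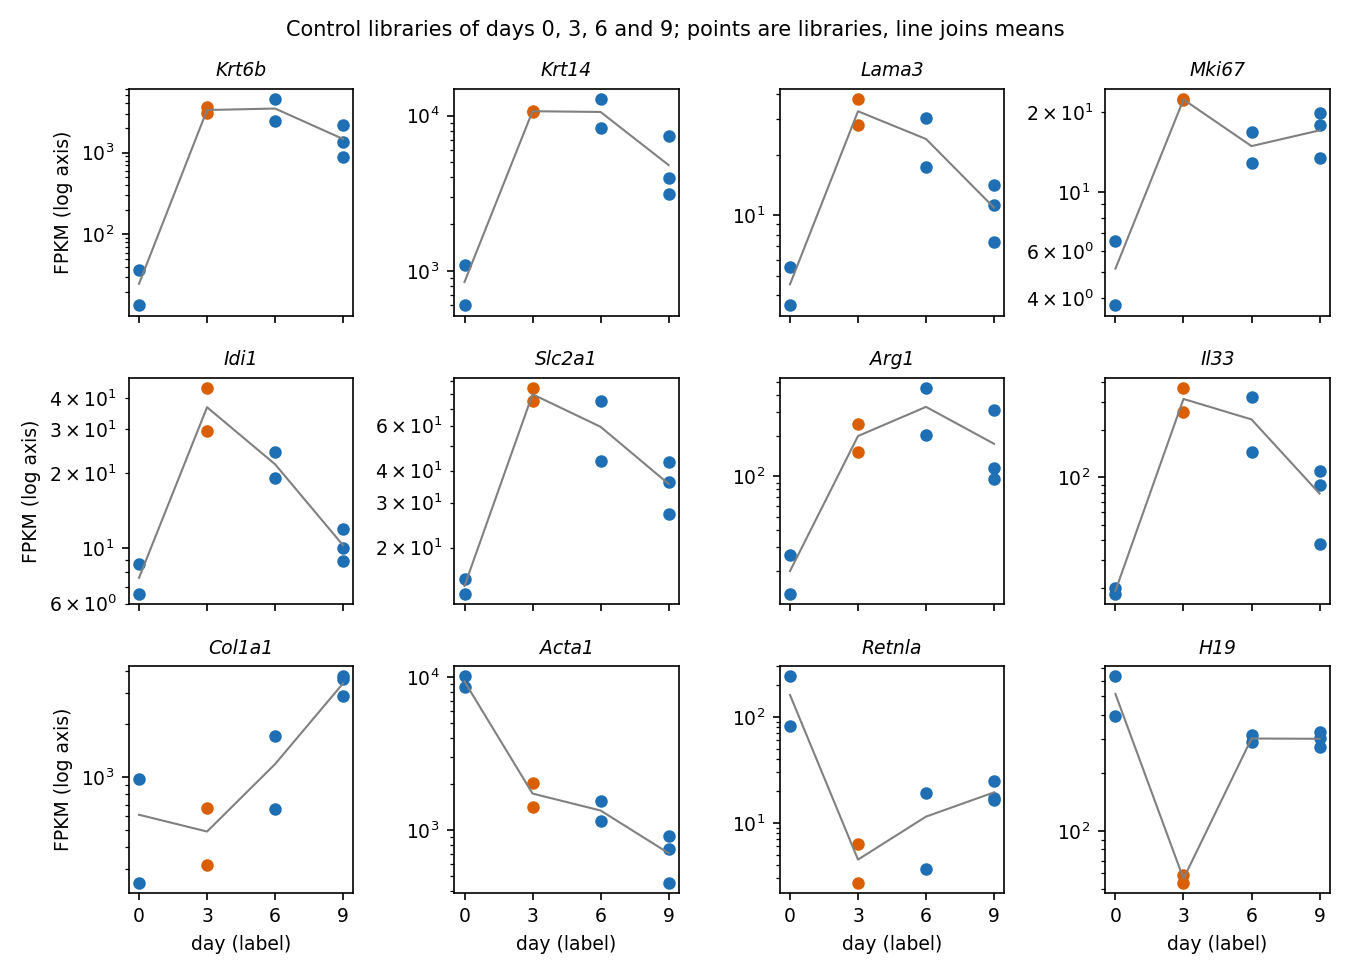
FPKM on log axes of 12 genes in the control libraries of days 0, 3, 6 and 9. Points are libraries, with day 3 in orange, and lines join group means. The wound keratin Krt6b lies between 895 and 4491 FPKM from day 3 on, Col1a1 is highest at day 9, and H19 is lowest at day 3.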

How the data were processed

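Smart-Seq2 libraries of mouse skin RNA were read from both ends on a NovaSeq instrument, per the labels' protocols, and reads were aligned to mm10 with HISAT2 2.2.1, per the submitters' processing notes. The authors deposited 1 table of FPKM values for all 17 libraries. For the counting program and its annotation, the entry is: not given in the sources used here. With exon lengths from GENCODE M21, 90.7 to 91.1% of the nonzero values of a library came out as whole fragments within 0.01 of a fragment. For 2663 further genes a length was searched for that makes their values whole, so their wholeness is no check; with these the share was 99.996%, and limma-voom on these fragments was 1 of the alternatives.

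Groups were taken from the labels. Values were tested as log2(FPKM + 1) with limma 3.58.1 (trend) in R 4.3.3, fitted to 7 groups of all 17 libraries with 10 residual degrees of freedom, on the 13876 genes that reached an FPKM of 1 in 2 or more of the 4 libraries. Adjusted p-values are Benjamini-Hochberg over these genes, from limma with its two-sided test. The fit was tested on simulated data. Depth was 25440773 to 29835196 assigned fragments in the 4 libraries of day 0 and day 3, and 2 libraries in each of these groups limit the precision.

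The members and gene lists were chosen with earlier results of these data known. Named genes are the 15 largest rises and 15 largest falls among protein-coding genes that passed with a mean of at least 5 FPKM in the higher group and no overlap, up to 6 members of each of 54 lists with the largest change among those that passed with a mean of at least 1 FPKM, every member of lists with 9 or fewer tested, and a set named whatever its values (wound-edge, TGF-beta, neutrophil chemokine and mitochondrially encoded genes and 15 single genes). Any other gene is marked in the text as picked with its values known. No match was found for 15 listed genes. Promoter windows are from RefSeq (GRCm38.p6), matched by symbol, chromosome, strand and a nearby start for 9468 tested genes. The 18 alternatives covered the pseudocount, filter, scaling, libraries in the fit, weights, replicate block, limma-voom, an added fold threshold and leaving out each library. A few of the genes selected are not reported here.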

Additional observations from a re-analysis of the deposited data

How the results depend on the processing

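Of the 5891 genes that differed between day 3 and day 0, the count stayed within 1.5 times under all alternatives but 3: it was 2487 with the 4 libraries alone, 1630 with the added threshold of 1 on the log2 scale, and 3548 without day 3 replicate 1. It ranged from 3548 to 5817 when a library was left out. For day 6 against day 3 the main count of 1 became 0 with array quality weights, limma-voom, a minimum FPKM of 5, pseudocounts of 0.1 and 5, the 2 groups alone, robust empirical Bayes and nuclear scaling, 3 with the filter over all 17 libraries and 22 (11 higher, 11 lower) with no filter, and 0 to 1 with a library left out. The day 9 count of 2498 became 5811 with array quality weights and 713 with the added threshold, and 169 to 2000 with a library left out. The cause of these shifts was not tested, beyond the smaller fits having fewer libraries. Over 360 named genes, 6429 values under the alternatives gave 0 changes of direction of a call, 693 lost calls and 27 gained ones, and 139 of 271 calls held under every alternative but the added threshold.

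With the replicate block, 5351 genes passed for day 3 against day 0 (3602 higher, 1749 lower), 0 for day 6 against day 3 and 2221 for day 9 against day 3. Day 0 and day 3 share 1 replicate number, and no label says that a number marks a shared animal or batch, so no pairing was assumed.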

Other observations

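Non-coding classes had other splits than protein-coding genes. Of 12513 protein-coding genes tested 3721 rose and 1712 fell from day 0 to day 3, of 201 lincRNA genes 16 rose and 58 fell, and of 135 antisense genes 17 rose and 42 fell. Of 521 processed pseudogenes 133 rose and 43 fell. Whether the counting used strand is not given in the sources used here, so reads of antisense genes and their partners cannot be told apart, and pseudogenes share reads with their parent genes. The difference between classes was not tested.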
